A study of Mus musculus with 6 samples.

Results

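The 10 genes described here encode the core of the TGF-beta signalling pathway in mouse CD8+ T cells: the ligand Tgfb1, the receptors Tgfbr1 and Tgfbr2, the SMAD proteins Smad2, Smad3, Smad4 and Smad7, and the nuclear corepressors Ski, Skil and Tgif1. They were chosen by name. All probe sets that the platform annotation assigns to them alone were taken, which gave 18 probe sets, 10 on the SubA array type, 6 on SubB and 2 on SubC, among 12488, 12477 and 11934 probe sets in those tables. The genes stand among 15964 named genes.

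Central memory (CM) and effector/effector memory (E/EM) CD8+ T cells were grown from C57Bl/6 P14 mice, all female, which carry 1 transgenic T cell receptor, so all cells shared its specificity. Whole spleen and lymph node cells were given the receptor's peptide for 2 days. The cells then spent 7 days in IL-15 (CM) or in IL-2 (E/EM) and were sorted for high (CM) or low (E/EM) levels of a surface marker. Cytokine and sort therefore changed together and cannot be told apart, and the cells are culture models of memory and effector cells. Each kind was hybridised once to each array type, which gives 6 arrays and 0 replicates. No test was possible, and every value describes these arrays alone.

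TGF-beta is made as a latent protein that must be released before it binds. The active dimer brings the type II receptor Tgfbr2 together with the type I receptor Tgfbr1, which phosphorylates Smad2 and Smad3. These join Smad4 and enter the nucleus, where they raise or lower transcription. Smad7 blocks the receptors, and Ski, Skil and Tgif1 repress SMAD-driven transcription. In CD8+ T cells the pathway is known to restrain proliferation and cytotoxic function and to favour tissue residence.

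The signal-transducing SMADs and Tgfbr1 had higher signals in CM than in E/EM cells, and the ligand Tgfb1, the receptor Tgfbr2 and the corepressor Tgif1 lower ones. All 5 probe sets of Smad2, Smad3 and Smad4 above the floor were higher in CM cells, with log2 ratios of CM signal over E/EM signal from 0.40 to 1.26, and both Tgfbr1 probe sets were higher too. Of all measured genes 49.7% were above 0. Tgfb1, Tgfbr2 and Tgif1 had log2 ratios from -0.55 to -0.38. Smad2, Tgfbr2 and Tgif1 each had 1 further probe set, under the floor, that ran the other way. The mean of the corepressor Skil, -0.70, rests on 1 weak probe set and was -0.12 without it, while Smad7 and Ski lay within 0.07 of 0. These differences were small, and fewer cells of a type cannot be told apart from less RNA per cell. Smad3 alone reached 2-fold, by a narrow margin, as 1 of 10 members higher and 0 of 10 lower, whereas the 2-fold mark was reached by 2.73% of the 10946 measured genes in the higher and by 5.61% in the lower direction. The median over the 10 members was 0.0008, against -0.0025 for all measured genes.

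A probe set was called measured when its signal lay above the floor of its table on both arrays. The floor, the level reached by the brighter controls for RNA that mouse cells lack, lay at 31.28 for SubA, 88.12 for SubB and 194.34 for SubC. Of the 18 probe sets 15 were measured and 3 lay under the floor in both kinds of cells, and each member kept at least 1. Signals of different probe sets depend on their probes, so levels are not compared between genes. The plot of signals shows all 18 pairs.

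**Figure D1:**
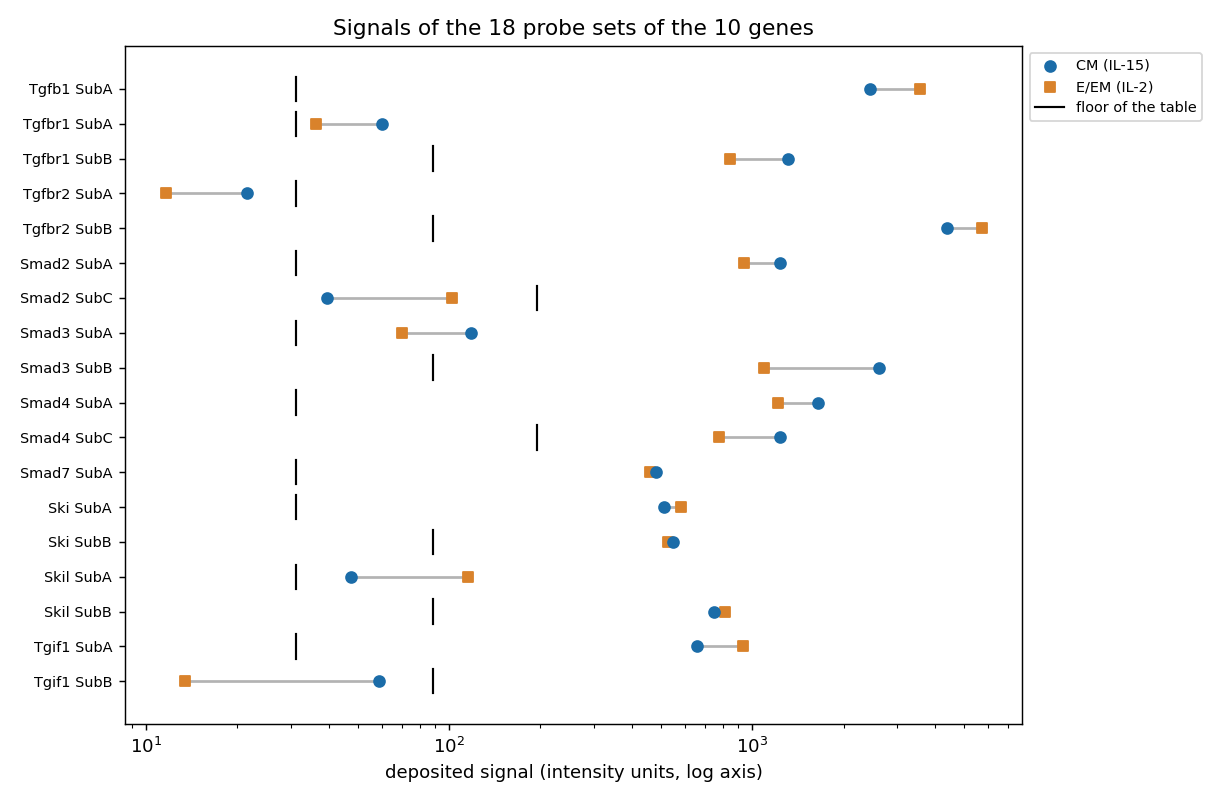
Deposited signal (intensity units, log axis) of each of the 18 probe sets in CM cells (circles) and E/EM cells (squares), with the floor of the table as a vertical tick; each point is 1 array. The 3 pairs left of their floor belong to Tgfbr2 on SubA, Smad2 on SubC and Tgif1 on SubB.

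Promoter windows are shown for 3 members, Smad3 and Tgfbr1, which had the highest log2 ratios of the 10, and Tgfb1, which went the other way. They come from RefSeq on build GRCm38.p6, which lists windows for 6 of the 10 genes, and each runs from 250 bases before to 50 bases after the annotated gene start, written 5′ to 3′ on the gene's strand. Capitals mark the GC box GGGCGG or its reverse complement CCGCCC, the letters bound by Sp1-type factors. The windows are Smad3 at chr9:63757945-63758244 on the minus strand, Tgfbr1 at chr4:47352972-47353271 on the plus strand and Tgfb1 at chr7:25686752-25687051 on the plus strand.
Smad3: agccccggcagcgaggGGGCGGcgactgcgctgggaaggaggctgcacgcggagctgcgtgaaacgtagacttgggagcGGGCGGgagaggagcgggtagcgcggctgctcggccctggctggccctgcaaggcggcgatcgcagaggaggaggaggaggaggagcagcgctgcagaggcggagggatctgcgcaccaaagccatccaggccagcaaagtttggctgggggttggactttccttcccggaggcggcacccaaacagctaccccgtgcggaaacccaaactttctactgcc
Tgfbr1: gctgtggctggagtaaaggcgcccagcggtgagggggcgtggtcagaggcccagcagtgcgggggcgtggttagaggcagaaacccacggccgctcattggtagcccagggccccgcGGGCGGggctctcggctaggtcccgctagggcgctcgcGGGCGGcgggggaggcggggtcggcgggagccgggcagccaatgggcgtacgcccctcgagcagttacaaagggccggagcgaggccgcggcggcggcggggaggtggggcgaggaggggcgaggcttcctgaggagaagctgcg
Tgfb1: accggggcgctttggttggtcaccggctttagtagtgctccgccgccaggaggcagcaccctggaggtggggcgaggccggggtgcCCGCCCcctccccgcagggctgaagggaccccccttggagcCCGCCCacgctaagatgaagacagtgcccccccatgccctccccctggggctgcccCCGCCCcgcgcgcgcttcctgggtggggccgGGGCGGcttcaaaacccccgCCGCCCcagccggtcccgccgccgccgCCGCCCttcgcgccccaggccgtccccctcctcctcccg

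The Smad3 and Tgfbr1 windows each held 2 GC boxes and the Tgfb1 window 6, with GC contents of 67.7%, 74.7% and 77.0%. Of 32851 RefSeq windows of this length, 35.7% held at least 1 GC box, and the median GC content was 52.7%. The windows at the gene starts of Tgfbr2 and Tgif1, also lower in CM cells, held 0 GC boxes, and that of Ski held 6. The SMAD box CAGAC, searched with its reverse complement GTCTG, was in none of the 3 windows shown. It was found once in each of the windows at the gene starts of Tgfbr2 and Tgif1, and 49.6% of all windows held it. No SMAD box overlapped a GC box. These are letter matches in short windows and were not linked to any binding data.

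Tgfb1 encodes the main TGF-beta isoform of T cells. Its 1 probe set, on SubA, had a signal of 2447.1 in CM cells and 3580.7 in E/EM cells. Both signals were far above the floor, the weaker one at 78.2 times its level. The log2 ratio was -0.55, a signal 1.46-fold lower in CM cells, at percentile 15.1 of all measured genes. The other isoforms were singled out with their values in view. Tgfb3 had 167.4 in CM cells and 197.2 in E/EM cells (log2 ratio -0.24). Tgfb2 lay under the floor in both.

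Tgfbr1, the kinase that phosphorylates Smad2 and Smad3, was measured on 2 array types. On SubA its signals were 60 in CM cells and 36.4 in E/EM cells. On SubB they were 1310.7 in CM cells and 843.4 in E/EM cells. The probe sets gave similar log2 ratios, 0.72 and 0.64, with a mean of 0.68 ± 0.06 (SD, 2 probe sets), although the weaker SubA signal was only 1.16 times the floor. Of the genes with at least 2 measured probe sets, 91.7% had an SD at least as large. Some of those genes have more than 2, so the comparison is not like for like. Tgfbr1 stood at percentile 92.4 of all measured genes.

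Tgfbr2, the receptor that binds the ligand first, was bright on SubB, with 4374.9 in CM cells and 5705.6 in E/EM cells. Its log2 ratio was -0.38, at percentile 22.2. The SubA probe set lay under the floor, with 21.5 in CM cells and 11.6 in E/EM cells, and runs the other way. With no floor the mean of the pair became 0.25, so the direction of Tgfbr2 rests on 1 probe set.

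Smad2, a receptor-activated SMAD, had 1238.1 in CM cells and 937.9 in E/EM cells on SubA. The log2 ratio of 0.40 placed it at percentile 81.7. The SubC probe set had 39.6 in CM cells and 102.0 in E/EM cells, both well under the floor of 194.34. Including it by dropping the floor turned the mean to -0.48, so the direction of Smad2 rests on 1 probe set.

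Smad3, the other receptor-activated SMAD and one that binds DNA directly, had the largest gene mean of the 10 members, in size as well as upward. On SubB it had 2623.7 in CM cells and 1094.2 in E/EM cells, a log2 ratio of 1.26. On SubA it had 117.7 in CM cells and 69.8 in E/EM cells, a log2 ratio of 0.75. The mean was 1.01 ± 0.36 (SD, 2 probe sets), or 2.01-fold, at percentile 97.4 of all measured genes. The SubB signals were at least 12.4 times the floor, and of 2054 SubB probe sets with both signals at least 10 times the floor, 2.04% were at least 2-fold higher in CM cells. On SubA alone the gene did not reach 2-fold.

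Smad4, the partner shared by all receptor-activated SMADs, was measured on SubA and SubC. Its SubA signals were 1647.5 in CM cells and 1216.1 in E/EM cells, and its SubC signals 1230.8 in CM cells and 775.5 in E/EM cells. The log2 ratios of 0.44 and 0.67 averaged 0.55 ± 0.16 (SD, 2 probe sets), at percentile 88.7. The 6 actin and Gapdh control probe sets whose names end in _at had log2 ratios between 0.18 and 0.31 on SubC, against -0.19 to -0.02 on SubA. The 3 whose names end in _st had 1.13, 0.12 and -0.31 on SubC, and 0.38, -0.47 and 0.06 on SubA. Their part in the higher SubC value of Smad4 was not tested.

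Smad7, the inhibitory SMAD that the pathway itself induces, hardly differed. Its SubA signals were 481.4 in CM cells and 458.6 in E/EM cells, a log2 ratio of 0.07. That lies inside the interquartile range of all measured genes, -0.33 to 0.29.

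Among the corepressors, Ski had 510.9 in CM cells and 580.0 in E/EM cells on SubA. On SubB it had 546.1 in CM cells and 528.9 in E/EM cells. The probe sets fell on opposite sides of 0, and their mean of -0.07 ± 0.16 (SD, 2 probe sets) gives no direction.

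Skil (SnoN), a relative of Ski whose gene is itself a TGF-beta target, had 47.3 in CM cells and 115.1 in E/EM cells on SubA. On SubB it had 745.8 in CM cells and 812.9 in E/EM cells. The log2 ratios, -1.28 and -0.12, differed by 1.16, and their mean was -0.70 ± 0.82 (SD, 2 probe sets). An SD of that size or more was found in 8.72% of genes with at least 2 measured probe sets, among them genes with more than 2. The SubA signal in CM cells was only 1.51 times the floor, and the suffix of that probe set marks probes that can match further transcripts. Of the 1095 SubA probe sets with a weaker signal under 2 times the floor, 9.86% were at least 2-fold lower in CM cells. Without that probe set Skil had -0.12.

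Tgif1, a homeodomain repressor recruited by Smad2, had 657.9 in CM cells and 932.2 in E/EM cells on SubA. The log2 ratio was -0.50, at percentile 17.0. The SubB probe set was under the floor of 88.12, with 58.6 in CM cells and 13.4 in E/EM cells, opposite in direction. With no floor the mean became 0.81, so the direction of Tgif1 too rests on 1 probe set.

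**Figure D2:**
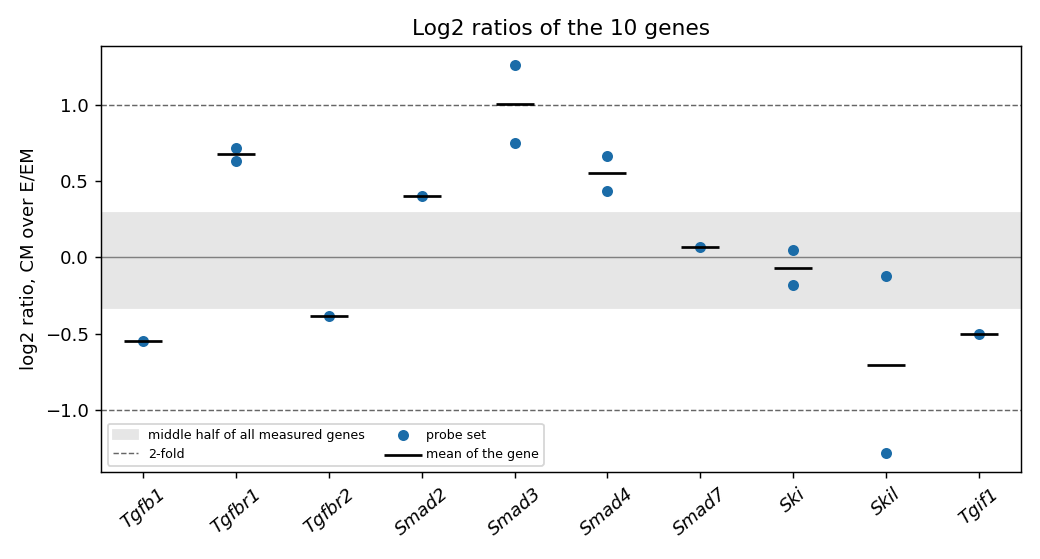
Log2 ratio of CM signal over E/EM signal for each measured probe set (points) and the mean of each gene (bars), with the interquartile range of all measured genes shaded (-0.33 to 0.29) and dashed lines at 2-fold. The means of Smad2, Smad3, Smad4 and Tgfbr1 lie above the shaded range, and those of Tgfb1, Tgfbr2, Skil and Tgif1 below it; the Skil mean is set by 1 of its 2 probe sets.

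Taking probe sets one by one, 9 of the 15 measured were higher in CM cells and 6 lower. Of all measured genes 49.7% were above 0. Of the 15, only the Smad3 probe set of SubB was at least 2-fold higher. Only the Skil probe set of SubA was at least 2-fold lower. Of all 20121 measured probe sets 3.91% reached 2-fold in the higher and 5.89% in the lower direction, so 1 of 15 in each direction is near the background. Of the 5 members measured by a pair of probe sets, 4 had both on the same side of 0, Ski being the exception. Over all 4094 genes with at least 2 measured probe sets, 51.4% had all of them on the same side. That share includes genes with more than 2, for which a common side is harder to reach, so the comparison is not like for like.

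How far a log2 ratio moves from array type to array type was read from control probe sets that are the same on all 3. The 22 mouse control probe sets above the floor on every array had a median SD of 0.26 over the array types, and the widest ranged over 1.04. It is not stated whether 1 RNA preparation served all arrays of a kind, so this spread may hold more than array error. The log2 ratios of Smad3, Tgfbr1, Tgfb1, Smad4, Tgif1, Smad2 and Tgfbr2 were larger in size than that SD, and those of Smad7 and Ski were smaller. For Skil this held for the SubA probe set and not for the SubB one. Of all measured genes 56.7% were larger in size than that SD too. This comparison is a description and not a test.

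**Figure D3:**
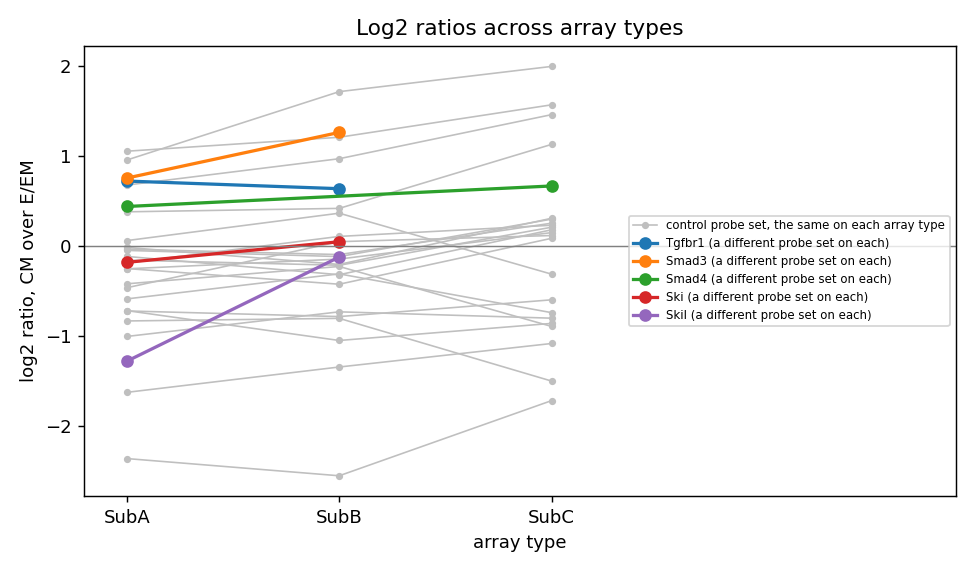
Log2 ratio of CM signal over E/EM signal by array type for 22 control probe sets present on each (grey) and for the 5 members measured on more than 1 array type (coloured, a different probe set on each). Smad3, Tgfbr1 and Smad4 stay above 0, and Skil spans 1.16 between SubA and SubB.

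The other genes of the pathway were followed in 7 lists. Together they named 161 genes, of which 118 were measured, with a median log2 ratio of -0.13. In CM cells 3 of the 118 (2.54%) reached 2-fold in the higher and 14 (11.9%) in the lower direction, against 2.73% and 5.61% of all measured genes. Without probe sets whose suffix marks shared or incomplete probes, 10 of 109 were lower, against 5.43% of all measured genes. Itgav, Atf3 and Gzma then had no value, and Klrk1 had -0.99. The lists differ in their share of lower genes, as the plot of pathway lists shows, and no test of those shares was made.

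Ligands, latency proteins and activators lay mostly lower in CM cells, as Tgfb1 did. Of 27 listed genes 11 were measured, 10 of them (90.9%) below 0, against 50.3% of all measured genes. The median of -0.49 was -0.24 with the floor halved or without probe sets of that suffix, and -0.94 with the floor at the signals' 60th percentile. Itgav, the integrin chain that helps to release active TGF-beta, was at least 2-fold lower, with a mean log2 ratio of -1.52 ± 0.29 (SD, 2 probe sets). Both probe sets carry such a suffix. The brighter one had 1003.5 in CM cells and 3332.2 in E/EM cells. Furin, the protease that cleaves the TGF-beta precursor, was also at least 2-fold lower, with 754.7 in CM cells and 1557.6 in E/EM cells (log2 ratio -1.05). Lrrc32 (GARP), which holds latent TGF-beta on the cell surface, had -0.83 from 1 SubC probe set, and Bmp4 had -0.61 with weak signals. Most of the remaining ligand genes were at or under the floor in at least 1 kind of cell.

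The other receptors and coreceptors had a median of -0.56 over 14 measured genes of 17, which was -0.29 with the floor doubled. Of these genes 9 (64.3%) were below 0, against 50.3% of all measured genes, and 0 were at least 2-fold higher and 2 (14.3%) lower, against 5.61% lower of all. Eng (endoglin), a coreceptor, had 579.4 in CM cells and 1496.3 in E/EM cells, a log2 ratio of -1.37, which was -0.95 with the floor halved. Bambi, a pseudoreceptor that dampens signalling, had 140.8 in CM cells and 291.2 in E/EM cells, a log2 ratio of -1.05, and -0.83 after quantile normalization. Its weaker signal was only 1.60 times the SubB floor, and with the floor doubled it had no value. Of SubB probe sets with a weaker signal under 2 times the floor, 15.1% were at least 2-fold lower in CM cells. The bone morphogenetic protein receptors Bmpr1a and Bmpr2 had -0.94 ± 0.07 (SD, 4 probe sets) and -0.89 ± 0.09 (SD, 3 probe sets). Tgfbr3 (betaglycan), the coreceptor that presents TGF-beta to Tgfbr2, was singled out after its values were seen. It had a mean of 0.41 ± 0.31 (SD, 4 probe sets), and its brightest probe set was at -0.04.

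Other SMADs and the proteins that carry, modify or degrade them differed little. None of 23 measured genes passed 2-fold, against 2.73% of all measured genes in the higher and 5.61% in the lower direction. The list median of -0.12 ranged from -0.20 to 0.04 over the settings tried. Smad1, a SMAD of the bone morphogenetic protein branch, had 0.92 ± 0.24 (SD, 2 probe sets), with 828.6 in CM cells and 388.9 in E/EM cells on the brighter one. The deubiquitinase Usp9x had 0.61 ± 0.44 and the endocytic adaptor Dab2 -0.63 ± 0.55 (SD, 2 probe sets each). Ppp1r15a (GADD34) had -0.61.

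Nuclear partners, coactivators and corepressors of SMADs had a median of -0.02 over 23 measured genes, which ranged from -0.07 to 0.12 over the settings. At 2-fold 0 were higher and 2 (8.70%) lower, against 2.73% and 5.61% of all measured genes. Runx3, which drives the cytotoxic T cell programme and can work with SMADs, had 111.8 in CM cells and 316.9 in E/EM cells, a log2 ratio of -1.50 with the weaker signal only 1.27 times the floor. Atf3, a stress-induced factor that can join Smad3, had -1.14 ± 0.57 (SD, 2 probe sets), and Cited2 and the acetyltransferase Ep300 had -0.61 and -0.58. The Ep300 value came from 1 probe set with a suffix for shared or incomplete probes, its weaker signal only 1.09 times the floor. The kinases of the branch that does not use SMADs had a median of 0.05 over 16 measured genes, from -0.07 to 0.13 over the settings. Where 2.73% of all measured genes were at least 2-fold higher and 5.61% lower, 0 of these were lower and 1 (6.25%) was higher. That gene was Mapk8 (JNK1), at 1.03 ± 0.37 (SD, 2 of 6 probe sets), which was 0.86 with the floor halved, 0.77 with the floor at the signals' 60th percentile and 0.11 with no floor. Map2k3 had -0.66 ± 0.09 (SD, 2 probe sets), Map2k6 0.58 and Tab2 -0.52.

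**Figure D4:**
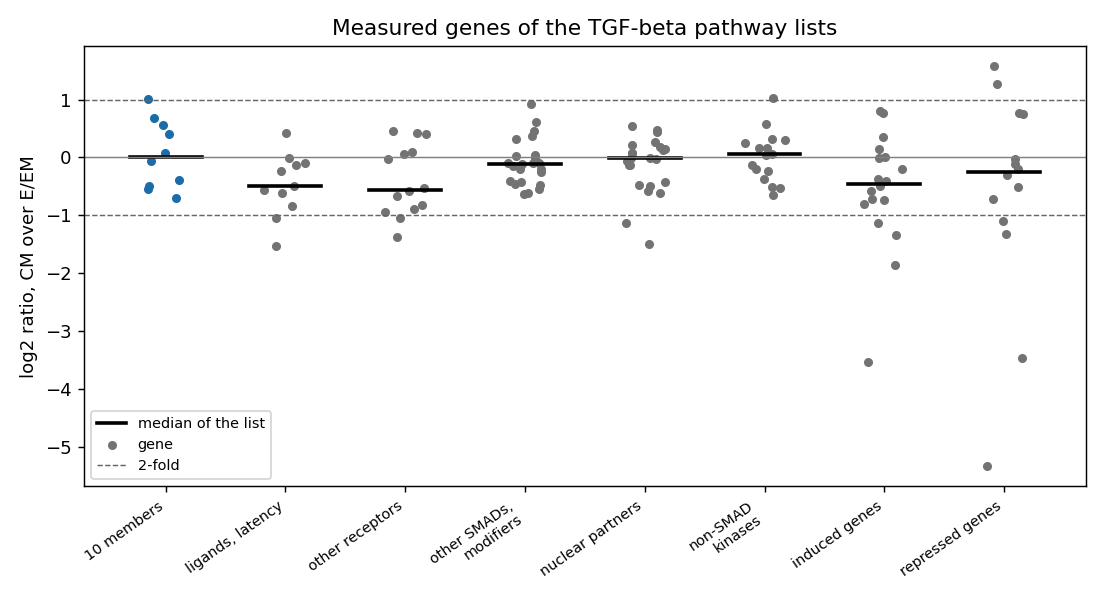
Log2 ratio of CM signal over E/EM signal of each measured gene in the 10 members and the 7 pathway lists (points), with the median of each list (bars) and dashed lines at 2-fold; sideways scatter within a list has no meaning. The medians of the ligand and receptor lists are -0.49 and -0.56, against 0.0008 for the members.

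Genes that TGF-beta is known to induce in several cell types lay mostly lower in CM cells, 13 of 18 measured genes (72.2%) below 0, against 50.3% of all measured genes. At 2-fold 0 were higher and 4 (22.2%) lower, against 5.61% lower of all. The median of -0.45 became -0.06 with a floor raised to the signals' 60th percentile and -0.73 with no floor. The lower 4 were Cdkn1a (p21), an inhibitor of cyclin-dependent kinases, at -3.55 ± 0.57 (SD, 2 probe sets), Gadd45b at -1.87, Bhlhe40 at -1.35 and Rgs16 at -1.14. Cdkn2b (p15), another such inhibitor, was under the floor in CM cells, with a signal of 6.7 against 557.0 in E/EM cells, which puts it at least 17.8-fold lower. Smaller bounds went both ways. Ldlrad4 was above the floor in CM cells alone, with 189.8 against 45.9 in E/EM cells on SubB, at least 2.15-fold higher. Id1 was above it in E/EM cells alone, with 30.0 in CM cells and 48.4 in E/EM cells on SubA, at least 1.55-fold lower. Id1 is also on the list of genes lowered by TGF-beta, so its bound has no single reading. Klf10, an early TGF-beta response gene, and Snai2 had 0.76 ± 0.09 (SD, 2 probe sets) and 0.81, and Itgae, the CD103 chain of tissue-resident cells, had -0.81 ± 0.47 (SD, 2 probe sets). These 3 genes were picked with their values in view.

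Genes known to be lowered by TGF-beta, mostly in T cells, were below 0 in 10 of 14 measured genes (71.4%) and above 0 in 4. Of all measured genes 50.3% were below 0. In CM cells 2 of the 14 were at least 2-fold higher (14.3%) and 4 lower (28.6%), against 2.73% and 5.61% of all measured genes. The list median of -0.25 became -0.11 with the floor at the signals' 60th percentile. The chemokine receptors Ccr7 and Cxcr3 were the higher ones, at 1.58 and 1.27. The lower ones were Gzma at -5.34, from 1 probe set with a shared-probe suffix, Prf1 at -3.47, Gzmb at -1.33 and Klrk1 at -1.09 ± 0.52 (SD, 3 probe sets). Klrk1 was under 2-fold in several settings, among them the floor doubled (-0.50) and quantile normalization (-0.96).

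Markers checked the labelled cell type. All 8 CD8+ T cell markers were measured, and their SubA signals summed to 49209.2 in CM cells and 48160.7 in E/EM cells. The brightest over the floor were Thy1, with 10440.7 in CM cells and 12781.3 in E/EM cells, Cd8b1, with 12298.3 in CM cells and 8709.3 in E/EM cells, and Cd3e, with 6545.6 in CM cells and 7095.9 in E/EM cells.

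Markers of other cells were present too. Of 8 B cell markers 6 were measured. All SubA probe sets of the list, those under the floor included, summed to 9478.7 in CM cells and 7371.1 in E/EM cells, most of it from Ighm. The brightest Ighm probe set had 5306.6 in CM cells and 3802.4 in E/EM cells, Cd79b had 370.9 in CM cells and 284.0 in E/EM cells, and Pax5 had 67.7 in CM cells and 84.8 in E/EM cells. Of 10 macrophage, monocyte and neutrophil markers 4 were measured, and all 4 were below 0. All SubA probe sets of that list, those under the floor included, summed to 545.0 in CM cells and 770.3 in E/EM cells. Cd68 had 89.4 in CM cells and 199.5 in E/EM cells, a log2 ratio of -1.16, and Csf3r and Cd14 had -0.50 and -0.63. Lyz2 and Itgam were under the floor in both kinds of cells.

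The platelet list, of interest because platelets store Tgfb1, had 2 of 7 genes measured, Treml1 and Gp9. Its SubA signals, from Gp9 and Pf4 alone, summed to 77.6 in CM cells and 54.5 in E/EM cells. Treml1 lay on SubB, outside that sum, with 273.1 in CM cells and 236.0 in E/EM cells. On SubA Gp9 had 40.8 in CM cells and 46.7 in E/EM cells. Pf4 was above the floor in CM cells alone, with 36.8 against 7.8 in E/EM cells, and Ppbp was under it in both. Of 8 stromal and endothelial markers 4 were measured, with Col1a2, Pecam1 and Pdgfra at log2 ratios of -0.19, 0.46 and 0.42. All SubA probe sets of that list, those under the floor included, summed to 775.2 in CM cells and 806.1 in E/EM cells.

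Of 6 helper and regulatory T cell markers 2 were measured, Lrrc32 and Cd4, and the list summed to 179.0 in CM cells and 309.3 in E/EM cells on SubA. That sum leaves out Lrrc32, whose 1 probe set is on SubC. Lrrc32 was the brightest over the floor, with 8268.0 in CM cells and 14731.4 in E/EM cells, the weaker at 42.5 times the floor. Cd4 had 131.7 in CM cells and 49.3 in E/EM cells, a log2 ratio of 1.42 from weak signals. Cd40lg and Ikzf2 were under the floor in both kinds of cells, and Foxp3 had no probe set. Zbtb7b, which directs the helper T cell fate, was above the floor in E/EM cells alone, with 63.3 in CM cells and 857.9 in E/EM cells on SubB, at least 9.74-fold lower in CM cells. The part of other cells in the Tgfb1 and receptor signals was not tested.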

How the data were processed

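Total RNA of each kind of cell was put on 1 array of each of 3 types, and titles gave the groups. The deposited values are linear probe set intensity values in 3 tables. How the authors computed and scaled them is not stated in the labels. The mean of each array without its lowest and highest 2% lay between 499.3 and 499.9, as after scaling to 1 target, so values were used as deposited. Symbols were those of GEO's annotation of each platform, checked by Entrez identifier against RefSeq GRCm38.p6, which held 29044 of 29131 named probe sets and changed 0 symbols. Probe sets with several symbols were left unnamed.

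For the floor, the 90th percentile of 15 bacterial poly-A controls was taken on both arrays of a table and the higher kept. A gene's value was the mean log2 ratio over its probe sets above the floor on both arrays, with the SD over probe sets, and at least 2-fold was counted. Where only 1 kind of cell exceeded the floor, the gene gave a bound, its signal over the floor. The number of arrays limits the precision. From each pathway list the text names genes past 2-fold, up to 4 with the largest log2 ratio and bounds of at least 4-fold, and from each marker list up to 3 measured genes, the brightest over the floor. The members and lists were chosen with earlier results of these data known. No genes of similar pattern are named, since 2 kinds of cells give 1 contrast. The ratio calculation was tested on simulated data. Python 3.11.15, numpy 2.4.6 and pandas 2.3.3 were used. The alternatives changed normalization, centring, floor, choice of probe sets, array types and the fold rule. The alternative with 1 probe set per gene took the brightest by deposited signal, across array types with different floors.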

Additional observations from a re-analysis of the deposited data

How the results depend on the processing

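The counts at 2-fold among the members are small and rest on 2 probe sets. With the Smad3 probe set of SubB left out by using SubA alone, 0 member probe sets and 0 members were higher, and Skil became the 1 lower member. On SubA alone 2.09% of all measured genes were higher and 4.35% lower. The lower member probe set was lost (0) with the floor doubled or at the 60th percentile of the signals, and when shared probe sets were dropped. Of the listed genes, 5 were lower with the floor at the 60th percentile, where 82 in place of 118 were measured. At that floor 3.44% of all measured genes were lower. The 1.5-fold rule gave 5 higher member probe sets, 2 higher members, 1 lower member, and 9 higher and 29 lower listed genes of 118. By that rule 10.1% of all measured genes were higher and 13.9% lower. The 3-fold rule gave 0 member probe sets in either direction, 0 members higher, and 0 higher and 4 lower listed genes. By that rule 0.56% of all measured genes were higher and 1.54% lower. With no floor there were 2 higher and 2 lower member probe sets and 7 higher and 24 lower listed genes of 148. Of all genes 8.52% were then higher and 13.7% lower. Over the settings that gave a value, Smad3 lay between 0.75 and 1.26, Tgfbr1 between 0.64 and 0.76, Smad4 between 0.44 and 0.58, Tgfb1 between -0.57 and -0.55 and Skil between -1.28 and -0.12. Smad2, Tgfbr2 and Tgif1 changed sign with no floor only, where Atf3 had -0.84, Gadd45b -3.51 and Gzma -2.35. Quantile normalization moved the median of all genes from -0.0025 to 0.03. No paired analysis was possible because each kind of cell has 1 array per array type.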

Other observations

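The bone morphogenetic protein branch, which shares Smad4 with the TGF-beta branch, showed values in both directions; it was singled out after its values were seen. Its receptors Bmpr1a and Bmpr2 were lower in CM cells, with all 4 and all 3 measured probe sets below 0. Of all measured genes 50.3% were below 0. On SubB 1 further Bmpr2 probe set exceeded the floor in CM cells alone, with 89.3 against 66.1 in E/EM cells. Another exceeded it in E/EM cells alone, with 32.4 in CM cells and 103.8 in E/EM cells. Smad1 and Smad5, the SMADs that receptors of this branch activate, had means of 0.92 ± 0.24 (SD, 2 probe sets) and 0.32 ± 0.27 (SD, 3 probe sets). The inhibitory Smad6 had 91.2 in CM cells and 92.2 in E/EM cells on SubA, a log2 ratio of -0.02, close to that of Smad7. Smad9 was under the floor in both kinds of cells. Bmpr1b, Bmp2 and Bmp6 were under the floor in both kinds of cells as well. Bmp4 and Bmp7 had log2 ratios of -0.61 and -0.01, each from 1 weak probe set.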
